A study of Rattus norvegicus with 6 samples.

Results

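The genes described here are the heat shock proteins and their DNAJ co-chaperones, taken as every gene of the table whose symbol starts with Hsp or Dnaj, except Hspg2, which encodes a matrix proteoglycan. The rule took 73 of the 22864 genes. By size class they were 8 small heat shock proteins by name, 45 DNAJ proteins (the 40 class) and 2 of the 60 class. Another 13 were of the 70 class and 3 of the 90 class. The last 2 were the binding proteins Hspbp1 and Hspbap1, which belong to no class. Hspb11 counts in the small class by its name only, as the GRCr8 assembly names it Ift25. Levels come from bulk RNA sequencing of L4-L6 dorsal root ganglia (DRG) of the treated side, which house sensory neuron cell bodies, taken from male wild-type rats 7 days after the procedure. Rats of the Sham+Veh group were anaesthetised with pentobarbital only and received vehicle. Rats of the CPIP+Veh and CPIP+ETA groups had the same anaesthesia and an O-ring around the hind limb close to the ankle for 3 h, the chronic post-ischaemia pain model, and received vehicle or etanercept, a soluble TNF receptor fusion protein. All 3 groups had daily intrathecal injections that began 2 days after the procedure, so the injection itself is shared by the controls. Each group has 2 libraries, numbered 1 and 2. The labels do not say whether these came from separate or pooled animals, so p-values measure only the spread between these libraries, which may be technical.

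Chaperones bind unfolded or newly made proteins. The HSP70 proteins do this in cycles of ATP hydrolysis that DNAJ proteins start and nucleotide exchange factors such as Hsph1 reset, while HSP90 matures client proteins such as kinases and steroid hormone receptors. Small heat shock proteins hold unfolded clients without ATP, and Hspd1 with its lid Hspe1 folds proteins inside mitochondria. Heat shock factor 1 drives the inducible members by binding inverted GAA repeats, and a separate element serves the chaperones of the endoplasmic reticulum (ER) when unfolded proteins accumulate there. In sensory neurons, Hspb1 is known as a gene that rises after nerve transection.

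Stretches that hold those 2 elements are shown because the results are given by the branches the elements are known for; most members with a promoter sequence had neither. Promoter sequences are from RefSeq on the GRCr8 assembly and were found for 59 of the 73 genes. In the 250 bases before the start, on either strand, the heat shock element was searched as GAA, TTC and GAA with any 2 bases between neighbours, and the ER stress element as CCAAT and CCACG with any 9 bases between them. The first was present before 4 members (Hspa8, Hspd1, Hspe1 and Hsph1), or 6.78%, against 222 of 33469 promoters (0.663%). The second was present before 3 members (Hspa5, Hsp90b1 and Dnajc3), or 5.08%, against 22 of 33469 promoters (0.0657%). The heat shock element matches of Hspd1 and Hspe1 lie in 1 shared stretch. Hspa1a and Dnajb1, described below as inducible, had no match, and Hsp90aa1 had no promoter sequence to search. The searched Dnajb1 stretch ends with GAA and TTC at the required distance. The place of its last GAA runs past the start, where no search was made, so a match there could have been missed. A match is a description of the letters only, and neither motif overlaps the other. Sequences are written 5′ to 3′ on the strand of the gene, with the match in capitals.
Hsph1, chr12:10427118-10427367, plus strand, heat shock element: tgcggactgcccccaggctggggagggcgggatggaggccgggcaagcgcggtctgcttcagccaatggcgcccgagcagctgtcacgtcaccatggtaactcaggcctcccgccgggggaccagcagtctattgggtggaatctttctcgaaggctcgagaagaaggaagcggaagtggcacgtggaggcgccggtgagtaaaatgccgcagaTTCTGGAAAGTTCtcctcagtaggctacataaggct
Hspe1, chr9:64084247-64084299, plus strand, heat shock element (1 of 2 overlapping matches) in a stretch shared head to head with Hspd1: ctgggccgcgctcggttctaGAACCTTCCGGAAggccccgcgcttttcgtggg
Hspa5, chr3:38452766-38453015, plus strand, ER stress element: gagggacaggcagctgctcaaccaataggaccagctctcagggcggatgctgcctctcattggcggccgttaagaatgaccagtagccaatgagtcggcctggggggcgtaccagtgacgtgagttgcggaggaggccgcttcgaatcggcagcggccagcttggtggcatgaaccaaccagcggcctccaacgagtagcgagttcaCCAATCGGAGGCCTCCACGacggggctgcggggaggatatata
Hsp90b1, chr7:23012431-23012489, minus strand, ER stress element (1 of 2 matches): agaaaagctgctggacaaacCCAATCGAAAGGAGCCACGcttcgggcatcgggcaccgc
Dnajc3, chr15:102432514-102432572, plus strand, ER stress element: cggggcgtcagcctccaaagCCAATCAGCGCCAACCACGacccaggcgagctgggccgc

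Library totals ran from 18285309 to 19981310 counts and 17782 to 17933 genes were detected, so no library stood apart in depth. All 16 sensory neuron markers were tested and summed to between 40468 and 45099 CPM (TMM-scaled CPM, counts scaled to a common library total, the level used throughout), so neuronal markers of the labelled tissue were present. Bulk levels cannot tell fewer cells of a type from less RNA per cell. Of the 73 genes, 68 had enough reads to be tested. The other 5 were Dnajb8 and Dnajc5g, which were blank in the table, Dnajb7 with 6 counts over the 6 libraries, Dnajc5b with 13 and Hspb9 with 4.

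The chaperone genes stood at nearly the same level in all 3 groups. Together they took 1.42% of the reads in both sham libraries, 1.44% and 1.46% in the CPIP+Veh libraries, and 1.47% and 1.48% in the CPIP+ETA libraries. These shares did not overlap between groups, but they span a narrow range. Between 57.3% and 59.0% of these reads came from 4 genes, Hsp90aa1, Hsp90ab1, Hspa8 and Hspa12a, so the summed share mainly follows them. A gene was called at an adjusted p under 0.05 (quasi-likelihood test of edgeR, Benjamini-Hochberg over the 15531 genes tested).

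No chaperone gene was called in any comparison. For CPIP+Veh against Sham+Veh 0 of 68 were called, where the background over all genes tested was 3 genes, or 0.0193%. For CPIP+ETA against CPIP+Veh it was 0 of 68 on a background of 0%, and for CPIP+ETA against Sham+Veh 0 of 68 on 0.0193%. DESeq2 and limma-voom also called 0 of the 68 in each comparison. At an unadjusted p under 0.05 edgeR had 2 members higher and 0 lower in CPIP+Veh than in Sham+Veh, where the background was 4.93% (2.34% higher and 2.59% lower). It had 2 higher and 0 lower in CPIP+ETA than in CPIP+Veh, on a background of 5.13% (2.40% and 2.73%). In CPIP+ETA against Sham+Veh it had 3 higher and 2 lower, on a background of 6.38% (2.63% and 3.75%). Those counts are near what the background gives. The median log2 fold change of the members was 0.02, -0.00 and 0.05 in the 3 comparisons, beside -0.00 in each over all genes tested.

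The intervals show how large a difference the libraries leave room for. For CPIP+Veh against Sham+Veh the 95% interval of the log2 fold change lay within ±0.5 for 53 of the 68 members, and for 10151 of the 15531 genes tested. The counts were 55 members for CPIP+ETA against CPIP+Veh and 52 for CPIP+ETA against Sham+Veh, beside 10024 and 9937 of the 15531 genes. Members also had smaller SEs than all genes tested, with medians of 0.0817 and 0.109 for CPIP+Veh against Sham+Veh. For 51 of the 68 members (75.0%) the larger gap between the 2 libraries of a group exceeded the gap between the group means, beside 72.5% of all genes tested. Members whose groups did not overlap numbered 16 higher and 12 lower in CPIP+Veh than in Sham+Veh, a share of 41.2% where the background was 37.1% (17.6% higher and 19.5% lower). For CPIP+ETA against CPIP+Veh they were 14 higher and 2 lower, or 23.5% against a background of 32.6% (15.7% and 16.9%). For CPIP+ETA against Sham+Veh they were 21 higher and 8 lower, or 42.6% against 35.7% (17.2% and 18.5%). The comparisons share libraries with each other, so their counts are not independent.

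**Figure D1:**
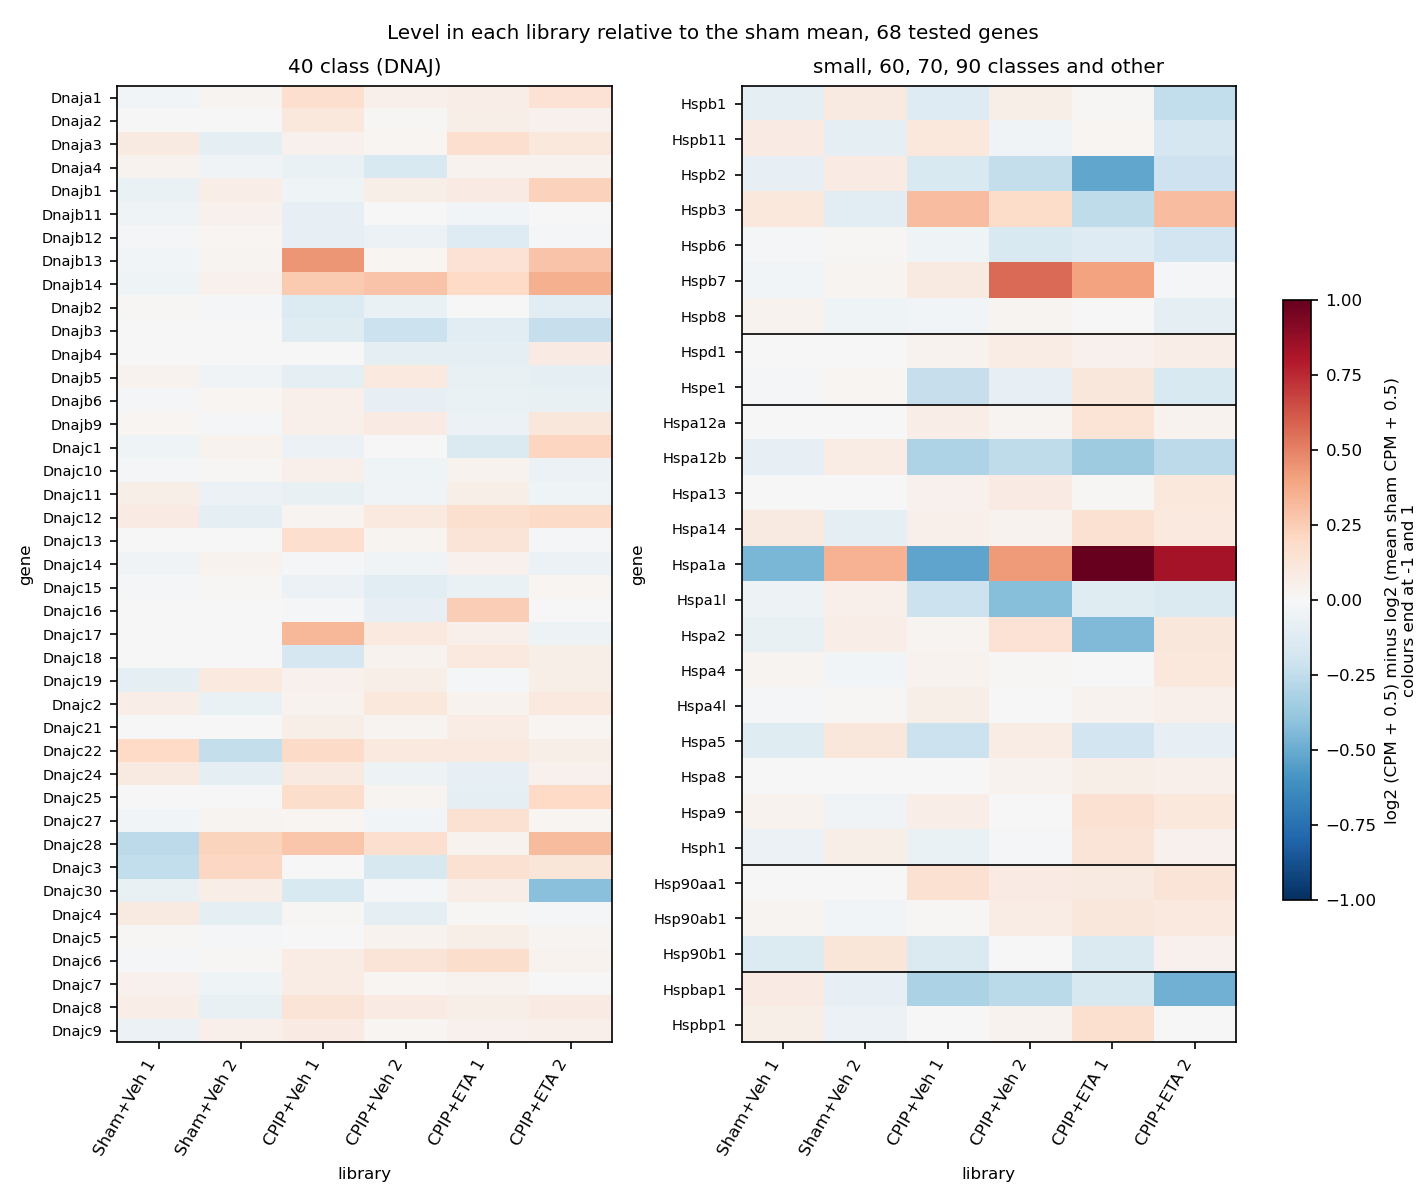
Level of each of the 68 tested genes (rows, with the 40 class on the left and the other classes on the right, separated by lines) in each of the 6 libraries (columns), as log2 of CPM plus 0.5 minus the same for the sham mean. Most cells are near 0 and Hspa1a in the CPIP+ETA libraries has the darkest cells, with CPM of 4.88 and 3.65 against 1.19 and 2.46 in sham.

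The class sums repeat this. The 90 class summed to 5410 and 5387 CPM in Sham+Veh, 5670 and 5669 in CPIP+Veh, with 5728 and 5822 in CPIP+ETA. All 4 CPIP libraries lay above both sham libraries for this class, with a ratio of 1.08 between the highest and the lowest library. The same held for the 40 class, at 2831 and 2830 CPM in Sham+Veh and 2846 to 2937 in the CPIP libraries (ratio 1.04). It also held for the 60 class, at 339 and 338 CPM in Sham+Veh and 341 to 352 in the CPIP libraries (ratio 1.04). Not every part of these classes did so. The Dnajb genes summed to 624 and 629 CPM in Sham+Veh and 604 to 628 in the CPIP libraries, while the Dnaja and Dnajc sums lay above sham. In the 60 class Hspe1 lay below sham in both CPIP+Veh libraries. In the 90 class only Hsp90aa1 lay above sham in every CPIP library, while Hsp90ab1 and Hsp90b1 overlapped sham in CPIP+Veh. In the 70 class both CPIP+ETA libraries, at 5081 and 5053 CPM, lay above the other 4, which ran from 4862 to 5008 CPM. That sum leaves out copies of its genes that the name rule did not take, described below. A pseudogene copy of Hspa8 alone held 1678 to 1898 CPM. With this copy added, Hspa8 was at 4178 CPM in CPIP+ETA 2, below 4284 in CPIP+Veh 2. The order of the 70 class libraries therefore depends on how reads are divided between copies. The small class had 578 and 594 CPM in Sham+Veh, 558 and 600 in CPIP+Veh, with 583 and 525 in CPIP+ETA. No test was run on the class sums.

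**Figure D2:**
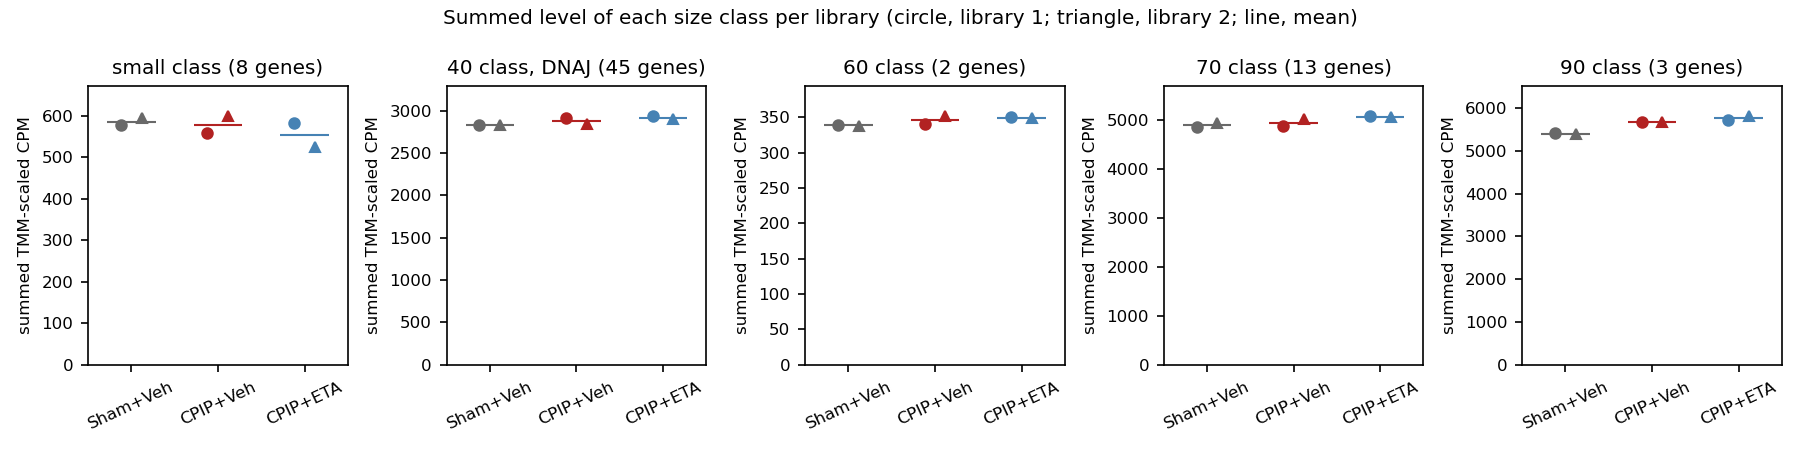
Summed TMM-scaled CPM of each size class (panels, vertical axis from 0) by group, with library 1 as a circle, library 2 as a triangle and the mean as a line. The 90 class stands at 5387 to 5410 CPM in sham and at 5669 to 5822 CPM in the CPIP libraries, and the 40 and 60 classes also have every CPIP library above sham. The small class ranges from 525 to 600 CPM with overlapping groups.

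Among the HSP90 genes, Hsp90aa1, the stress-inducible cytosolic form, was at 2691 and 2681 CPM in Sham+Veh, 2980 and 2836 in CPIP+Veh, with 2861 and 2933 in CPIP+ETA. All 4 CPIP libraries lay above both sham libraries, whether or not etanercept was given. Its log2 fold change was 0.11 in CPIP+Veh against Sham+Veh (SE 0.0462, edgeR adjusted p = 0.938) and 0.11 in CPIP+ETA against Sham+Veh (SE 0.0462, adjusted p = 0.783), so neither passed. Between the 2 CPIP groups it was -0.01, with a 95% interval from -0.12 to 0.10. Hsp90ab1, the constitutive cytosolic form, was at 2357 and 2275 CPM in Sham+Veh, 2332 and 2435 in CPIP+Veh, with 2508 and 2481 in CPIP+ETA. Its CPIP+ETA libraries lay above the other 4, with a log2 fold change of 0.11 against Sham+Veh (SE 0.0466, edgeR adjusted p = 0.792) that did not pass. A row named Hsp90ab1-ps17 in GRCr8, a pseudogene outside the name rule that was picked after its values were seen, had 91.7 and 83.6 CPM in Sham+Veh, 65.9 and 72.7 in CPIP+Veh, with 76.3 and 74.6 in CPIP+ETA. How the authors' counting divides reads between such copies is not given in the sources used here, so levels of both are uncertain, and with both rows summed the CPIP+Veh against Sham+Veh value was 0.03.

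In the HSP70 class, the constitutive cytosolic Hspa8 varied least between libraries, at 2358 and 2343 CPM in Sham+Veh, 2342 and 2415 in CPIP+Veh, with 2442 and 2436 in CPIP+ETA. Its log2 fold changes were 0.02, 0.04 and 0.05 in the order CPIP+Veh against Sham+Veh, CPIP+ETA against CPIP+Veh and CPIP+ETA against Sham+Veh. None passed, and the interval of the last was -0.05 to 0.16. A pseudogene row, Hspa8-ps25 in GRCr8, held 1678 to 1898 CPM, so many counts of this family sit on a copy. With both rows summed the level was 4095 and 4022 CPM in Sham+Veh, 4087 and 4284 in CPIP+Veh, with 4339 and 4178 in CPIP+ETA. The small spread given for Hspa8 is that of its own row and depends on how reads are divided between the copies. Hspa4l, an HSP110-type exchange factor, stayed between 173 and 182 CPM. Hspa12a, a distant HSP70 relative found in brain, was at 823 CPM in both sham libraries, 861 and 839 in CPIP+Veh, with 903 and 842 in CPIP+ETA, above sham in every CPIP library. Its log2 fold change against sham was 0.05 with vehicle and 0.08 with etanercept, and neither passed.

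The heat-inducible Hspa1a had the largest log2 fold change of the 68 members in both comparisons of CPIP+ETA. Its levels were 1.19 and 2.46 CPM in Sham+Veh, 1.11 and 2.62 in CPIP+Veh, with 4.88 and 3.65 in CPIP+ETA. Both etanercept libraries lay above the other 4, while the 2 libraries of sham and of CPIP+Veh differed from each other by more than their group means did. The log2 fold change was 1.19 for CPIP+ETA against CPIP+Veh (SE 0.479, 95% interval 0.04 to 2.33, edgeR adjusted p = 0.938) and 1.22 against Sham+Veh (SE 0.483, adjusted p = 0.769), and neither passed. For CPIP+Veh against Sham+Veh it was 0.03, with an interval from -1.16 to 1.23. Red blood cell markers, 6 of 6 tested above 0 in both comparisons of CPIP+ETA, summed to 82.5 and 75.8 CPM in Sham+Veh, 23.8 and 102 in CPIP+Veh, with 268 and 160 in CPIP+ETA. Of all genes tested, 49.5% were above 0 for CPIP+ETA against CPIP+Veh and 49.2% against Sham+Veh. None of the 7 markers in the table was at 0 in every library. Their sum was highest in CPIP+ETA 1, next in CPIP+ETA 2 and lowest in CPIP+Veh 1, as Hspa1a was, and their part in its level was not tested.

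These levels rest on small counts. The 6 deposited values of Hspa1a were 3, 6, 3, 7, 13 and 9 times a step of 7.46, in the order Sham+Veh, CPIP+Veh and CPIP+ETA. Each value lay within 0.015 counts of its multiple. Rows with no reads in a library, with only whole values or with high counts in every library were not searched. Among the rows searched, 5 had such a step of at least 3, and Hspa1a was the only member. What 1 step stands for is not stated. Fitted as whole steps, the log2 fold change of CPIP+ETA against CPIP+Veh was 1.16 with an interval from -0.40 to 2.73 (edgeR adjusted p = 0.937). That fit dropped the count filter used elsewhere, so its p was adjusted over all genes with any count. A second row, LOC108348108, carries the name Hspa1b in GRCr8, the near-identical twin of Hspa1a, and the name rule did not take it. It held 40.0 and 39.3 CPM in Sham+Veh, 35.8 and 30.8 in CPIP+Veh, with 42.6 and 42.4 in CPIP+ETA. Its CPIP+Veh libraries were the lowest and its CPIP+ETA libraries the highest, with no overlap between groups.

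With both rows summed, an alternative chosen after seeing the data, the inducible HSP70 level was 41.2 and 41.8 CPM in Sham+Veh, 36.9 and 33.4 in CPIP+Veh, with 47.5 and 46.1 in CPIP+ETA. The groups did not overlap. The log2 fold change of the sum was -0.24 for CPIP+Veh against Sham+Veh (SE 0.0703, edgeR adjusted p = 0.939), 0.41 for CPIP+ETA against CPIP+Veh (SE 0.0699, 95% interval 0.25 to 0.58, adjusted p = 0.685) and 0.17 for CPIP+ETA against Sham+Veh (SE 0.0695, adjusted p = 0.770). None of the 3 passed. The sum gave a smaller difference than Hspa1a alone in both comparisons of CPIP+ETA, and a larger one, of opposite sign, for CPIP+Veh against Sham+Veh. The etanercept libraries of 2 partners of inducible HSP70 lay above CPIP+Veh, and those of Dnajb1 above sham too, while Hsph1 overlapped sham. Hsph1, its exchange factor, was at 412 and 448 CPM in Sham+Veh, 411 and 423 in CPIP+Veh, with 471 and 443 in CPIP+ETA. Its log2 fold change for CPIP+ETA against CPIP+Veh was 0.13 (SE 0.0603, edgeR adjusted p = 0.938). Dnajb1, the inducible DNAJ partner, was at 65.6 and 71.8 CPM in Sham+Veh, 66.7 and 71.7 in CPIP+Veh, with 72.8 and 80.9 in CPIP+ETA, with a log2 fold change of 0.15 (SE 0.0796, adjusted p = 0.938). Neither passed. Both were among the 14 members higher without overlap in this comparison, where 2 were lower and the background was 15.7% and 16.9%. Other partners did not share the order. The DNAJ protein Dnaja1 (-0.00) and the exchange factor Hspa4l (0.01) overlapped CPIP+Veh, as did the inducible Hsp90aa1 (-0.01).

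**Figure D3:**
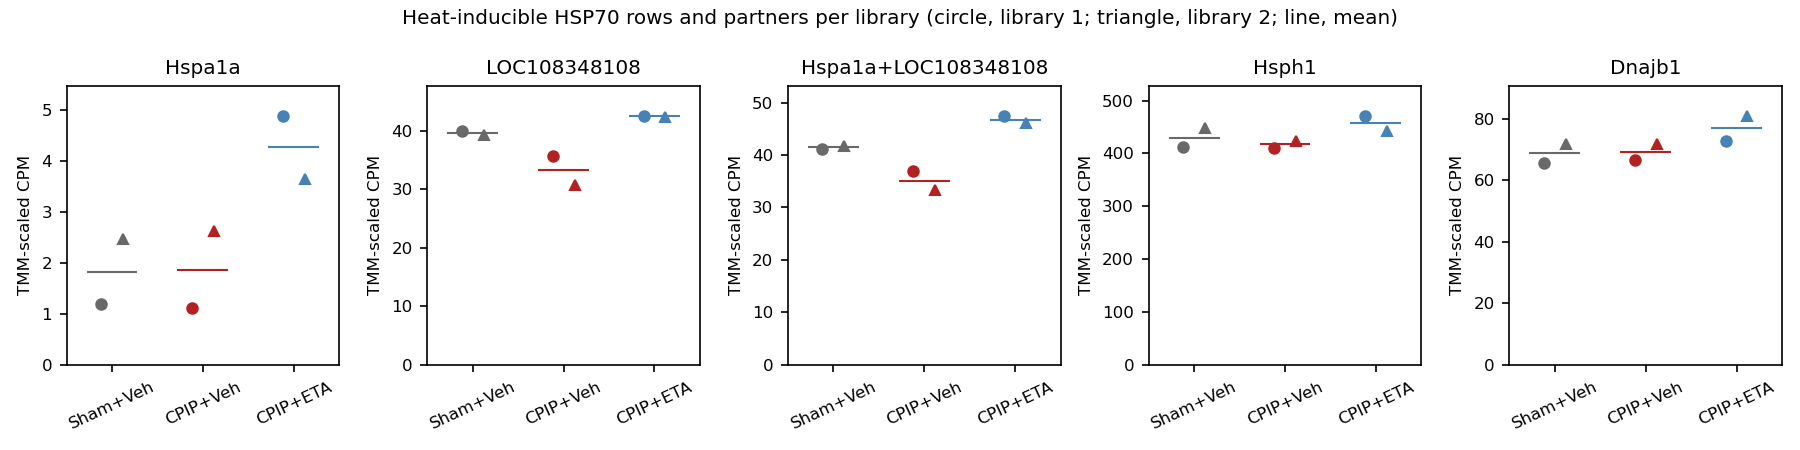
TMM-scaled CPM (vertical axes from 0, not shared between panels) of Hspa1a, of LOC108348108 (Hspa1b in GRCr8), of their sum, and of the partners Hsph1 and Dnajb1, by group, with library 1 as a circle, library 2 as a triangle and the mean as a line. The sum is 46.1 to 47.5 CPM with etanercept, 33.4 to 36.9 in CPIP+Veh and 41.2 to 41.8 in sham.

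Of the ER members, Hspa5 (BiP, the HSP70 of the ER) was at 402 and 474 CPM in Sham+Veh, 378 and 460 in CPIP+Veh, with 384 and 413 in CPIP+ETA. Hsp90b1 (the HSP90 of the ER) was at 361 and 432 CPM in Sham+Veh, 358 and 398 in CPIP+Veh, with 359 and 408 in CPIP+ETA. In each group the library numbered 2 was the higher one for both genes. In the 2 vehicle groups the gap between the libraries of a group was larger than any gap between group means, and for Hsp90b1 this was also so in CPIP+ETA. For CPIP+Veh against Sham+Veh the log2 fold change was -0.06 for Hspa5 (SE 0.113, edgeR adjusted p = 0.978) and -0.07 for Hsp90b1 (SE 0.106, adjusted p = 0.968). Of the DNAJ proteins of the ER, Dnajb9 lay between 41.3 and 46.6 CPM, Dnajb11 between 42.8 and 46.8, Dnajc10 between 242 and 260 and Dnajc3 between 11.8 and 16.4, while Dnajb14 is described with its class. Dnajc3, an inhibitor of the stress kinase PERK, was at 11.8 and 16.4 CPM in the 2 sham libraries alone, a spread that covers its other 4 values.

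The 27 genes fixed as the ER stress response, 6 of them members, had 0 called in every comparison and medians of -0.02, -0.04 and -0.05. They summed to 4179 and 4543 CPM in Sham+Veh, 4228 and 4489 in CPIP+Veh, with 4132 and 4347 in CPIP+ETA, with the order of libraries within each group that Hspa5 had. The genes with the lowest p were P4hb, Sil1 and Dnajc3 for CPIP+ETA against CPIP+Veh, and Syvn1 and Creld2 in both comparisons with sham, joined by Canx and P4hb. Creld2 had log2 fold changes of -0.29 and -0.26 against sham and did not pass.

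In the mitochondria, Hspd1 (HSP60) was at 302 and 300 CPM in Sham+Veh, 309 and 317 in CPIP+Veh, with 309 and 315 in CPIP+ETA. Every CPIP library lay above sham by a small margin, with a log2 fold change of 0.06 for CPIP+Veh (SE 0.0453, edgeR adjusted p = 0.956) and 0.05 for CPIP+ETA (SE 0.0453, adjusted p = 0.893). Hspe1, its lid, lies head to head with Hspd1 on the shared stretch printed above, and its libraries had another order. It was at 37.1 and 38.1 CPM in Sham+Veh, 31.9 and 35.5 in CPIP+Veh, with 40.6 and 33.8 in CPIP+ETA. Its difference for CPIP+Veh against Sham+Veh was -0.16 (SE 0.104, adjusted p = 0.948), and the difference between Hspd1 and Hspe1 was not tested. Hspa9, the mitochondrial HSP70, was at 276 and 262 CPM in Sham+Veh, 282 and 269 in CPIP+Veh, with 299 and 290 in CPIP+ETA. Its etanercept libraries were the highest, at a log2 fold change of 0.13 against sham (SE 0.0527, edgeR adjusted p = 0.769) that did not pass. Of the 18 genes fixed for mitochondrial protein folding, 5 of them members, 0 were called, and the medians were 0.03, 0.01 and 0.03. Hspa9, Dnaja3, a mitochondrial DNAJ, and Hspe1 or the protease Lonp1 had the lowest p with etanercept, and Lonp1, Hspe1 and Afg3l2 in CPIP+Veh against Sham+Veh.

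The DNAJ proteins are the largest class. Of its 41 tested members, 24 had a log2 fold change above 0 in CPIP+Veh against Sham+Veh, 20 in CPIP+ETA against CPIP+Veh and 28 in CPIP+ETA against Sham+Veh, beside 49.0%, 49.5% and 49.2% of all genes tested. The lowest p of all members in CPIP+Veh against Sham+Veh was that of Dnajb14, an ER membrane co-chaperone. It was at 9.53 and 10.1 CPM in Sham+Veh, 11.8 and 12.0 in CPIP+Veh, with 11.3 and 12.7 in CPIP+ETA, with both CPIP groups above sham. The log2 fold change was 0.28 (SE 0.107, edgeR adjusted p = 0.938) with vehicle and 0.29 (SE 0.107, adjusted p = 0.760) with etanercept, and it did not pass. Dnaja1, the farnesylated cytosolic partner of Hspa8, was at 392 and 409 CPM in Sham+Veh, 451 and 416 in CPIP+Veh, with 421 and 444 in CPIP+ETA, with a log2 fold change of 0.11 in both comparisons with sham.

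Dnaja4 had the lowest p for CPIP+ETA against CPIP+Veh. It was at 118 and 112 CPM in Sham+Veh, 110 and 104 in CPIP+Veh, and 118 in both etanercept libraries, with a log2 fold change of 0.15 (SE 0.0562, edgeR adjusted p = 0.938). It did not pass, and the etanercept libraries overlapped sham. Dnajc5 (cysteine string protein, which guards synaptic vesicle fusion proteins) lay between 257 and 269 CPM, and its interval for CPIP+Veh against Sham+Veh was -0.09 to 0.13. Dnajc6 (auxilin, which uncoats clathrin vesicles) was at 196 and 198 CPM in Sham+Veh, 207 and 216 in CPIP+Veh, with 223 and 202 in CPIP+ETA, with a log2 fold change of 0.10 (SE 0.0619, edgeR adjusted p = 0.948) for CPIP+Veh. Dnajb2, a neuronal co-chaperone mutated in inherited motor neuropathy, lay between 201 and 223 CPM, and Dnajb5 between 18.7 and 21.4. Dnajc12 was at 16.4 and 14.5 CPM in Sham+Veh, 15.8 and 16.5 in CPIP+Veh, with 17.3 and 17.7 in CPIP+ETA, so its etanercept libraries lay above the other 4. Its log2 fold change against sham was 0.18 (SE 0.0977, edgeR adjusted p = 0.831) and did not pass. For Dnajb6 a pseudogene row (Dnajb6-ps10 in GRCr8) held 23.2 to 30.4 CPM beside 65.7 to 72.0 CPM for the gene.

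Of the members, 9 of 68 (13.2%) stood above sham in every library of both CPIP groups, where 7.42% of all genes tested did. They were Dnaja1, Dnaja2, Dnajb14, Dnajc6, Dnajc21, Hsp90aa1, Hspa12a, Hspa13 and Hspd1. Below sham in every CPIP library were 6 of 68 (8.82%, background 8.38%), namely Dnajb3, Hspa12b, Hspa1l, Hspb2, Hspb6 and Hspbap1. Both CPIP groups were set against the same 2 sham libraries.

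**Figure D4:**
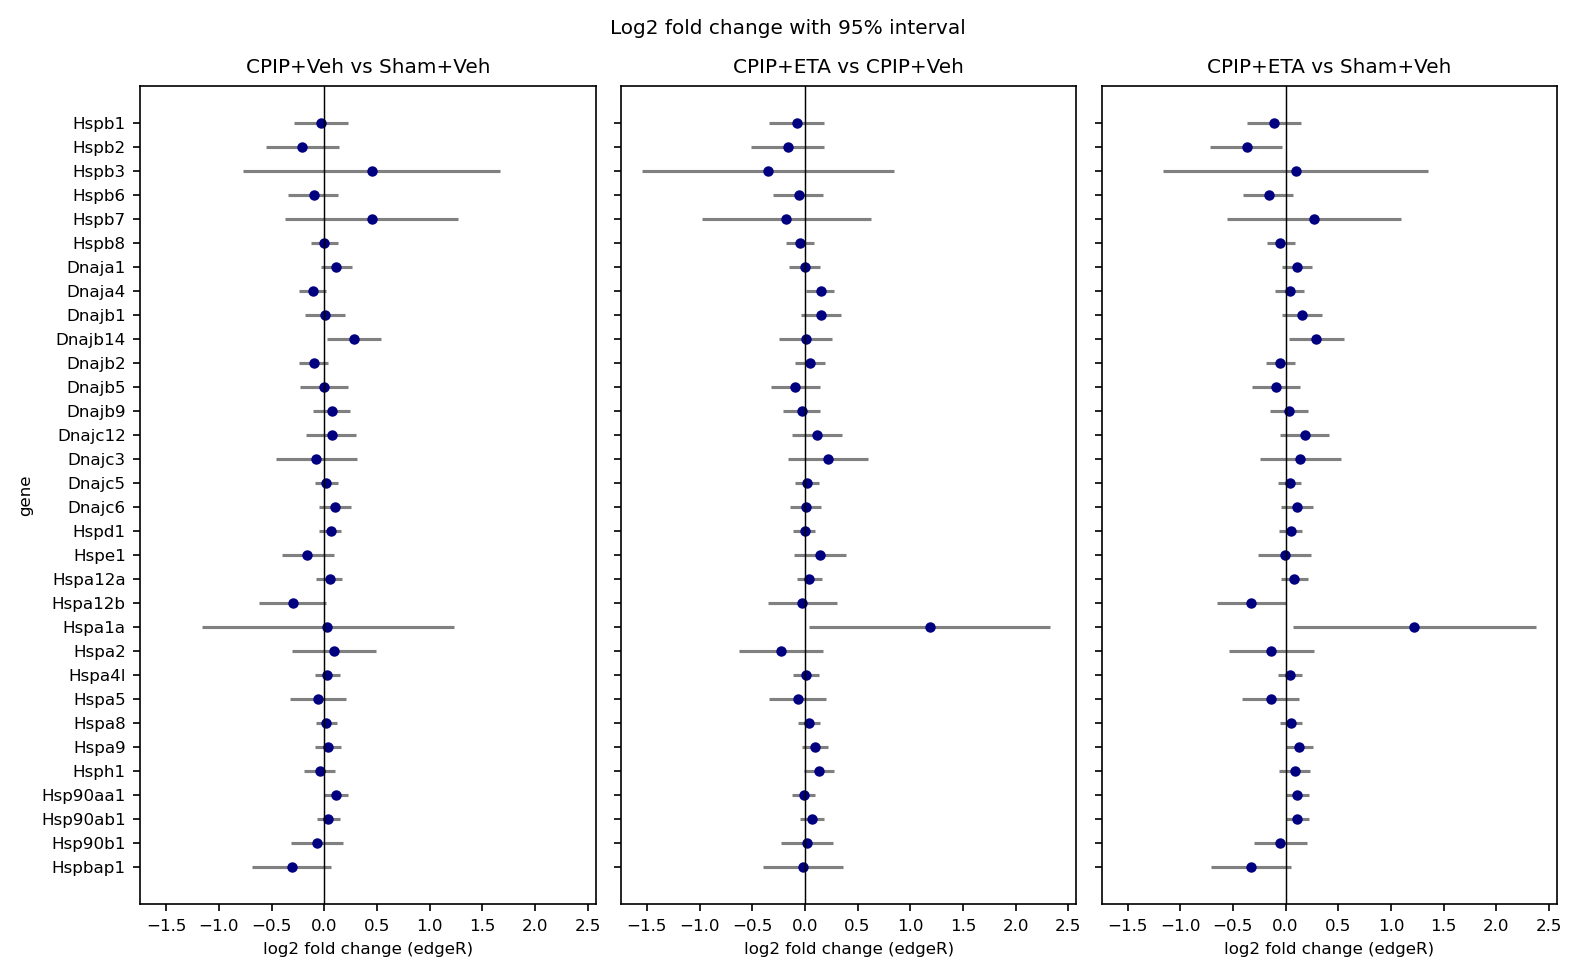
Log2 fold change from edgeR (points) with its 95% interval (lines) for the genes named by rule, in rows by class, in the 3 comparisons (panels, common horizontal axis). Most intervals are narrow and cross 0, while Hspa1a (1.19, interval 0.04 to 2.33, in CPIP+ETA against CPIP+Veh) and Hspb3 have wide ones.

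The small heat shock proteins include Hspb1 (HSP27), which binds actin and unfolded proteins. Hspb1 was at 241 and 272 CPM in Sham+Veh, 235 and 267 in CPIP+Veh, with 259 and 217 in CPIP+ETA. The groups overlapped fully, with a log2 fold change of -0.03 for CPIP+Veh against Sham+Veh (SE 0.108, 95% interval -0.29 to 0.23, edgeR adjusted p = 0.988). The other axon injury genes of the fixed list gave different values in the same libraries. Of the 19 tested beside Hspb1, 18 lay above 0 in CPIP+Veh against Sham+Veh, 16 had an unadjusted p under 0.05 (background 4.93%), 0 were called, and the median log2 fold change was 0.87. That list was fixed with earlier results of these data known and is no independent evidence of its direction. Atf3, the transcription factor used as an injury marker, was at 7.69 and 6.89 CPM in Sham+Veh, 16.2 and 42.0 in CPIP+Veh, with 6.19 and 23.1 in CPIP+ETA. In CPIP+Veh against Sham+Veh the lowest p in the list belonged to Stmn4, Reg3b and Vip, with edgeR adjusted p of 0.492, 0.475 and 0.475. They were Cckbr, Vip and Gal for CPIP+ETA against CPIP+Veh, where their median was -0.44, and Npy, Vip and Ecel1 for CPIP+ETA against Sham+Veh, where it was 0.27. No difference between Hspb1 and this list was tested.

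Hspb8, which works with Bag3 in selective autophagy, lay between 280 and 305 CPM with a log2 fold change of -0.00 for CPIP+Veh against Sham+Veh (interval -0.13 to 0.13). All 7 tested small members had a log2 fold change below 0 for CPIP+ETA against CPIP+Veh, with a median of -0.12, beside -0.00 for all genes tested. That median is the value of Hspb11, which GRCr8 names Ift25. The groups overlapped for each of the 7, and 49.5% of all genes tested were above 0. With 1 library left out, Hspb1 reached 0.04 (without CPIP+ETA 2), Hspb3 0.11 (without CPIP+ETA 1) and Hspb7 0.15 (without CPIP+Veh 2). Hspb6 reached 0.00, while Hspb2 and Hspb8 stayed below 0. Hspb2, a muscle-type member, was at 10.3 and 11.6 CPM in Sham+Veh, 9.77 and 9.18 in CPIP+Veh, with 7.50 and 9.41 in CPIP+ETA, so every CPIP library lay below sham. Its log2 fold change was -0.21 (SE 0.144, edgeR adjusted p = 0.948) for CPIP+Veh and -0.37 (SE 0.145, adjusted p = 0.768) for CPIP+ETA, and neither passed. Hspb6, which is abundant in smooth muscle, was at 12.8 and 13.0 CPM in Sham+Veh, 12.6 and 11.5 in CPIP+Veh, with 11.8 and 11.3 in CPIP+ETA.

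Markers of vessel cells lay on the same side as these members. Of all genes tested, 49.0% were above 0 in CPIP+Veh against Sham+Veh. The 14 smooth muscle and pericyte markers, 13 of them tested and 2 of these above 0 in CPIP+Veh against Sham+Veh, summed to 284 and 283 CPM in Sham+Veh, 218 and 217 in CPIP+Veh, with 206 and 246 in CPIP+ETA, and none was at 0 in every library. Their part in the levels of Hspb2 and Hspb6 was not tested. Hspa12b, an HSP70 relative of endothelial cells, was at 7.14 and 8.04 CPM in Sham+Veh, 6.02 and 6.30 in CPIP+Veh, with 5.84 and 6.26 in CPIP+ETA, below sham in every CPIP library. Its log2 fold change was -0.30 (SE 0.135, edgeR adjusted p = 0.938) with vehicle and -0.33 (SE 0.136, adjusted p = 0.778) with etanercept. The 11 endothelial markers, 2 of them above 0 in CPIP+Veh against Sham+Veh, summed to 277 and 289 CPM in Sham+Veh, 249 and 237 in CPIP+Veh, with 239 and 282 in CPIP+ETA. The marker sum of CPIP+ETA 2 lay between the sham values while Hspa12b there did not, and the part of these cells in its level was not tested. Hspbap1, a binding partner of Hspb1, was at 8.82 and 7.82 CPM in Sham+Veh, 6.58 and 6.81 in CPIP+Veh, with 7.40 and 5.82 in CPIP+ETA, with a log2 fold change of -0.31 (SE 0.158, adjusted p = 0.938) for CPIP+Veh.

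Hspb7 and Hspb3, both heart and skeletal muscle members, had few reads. Hspb7 was at 1.41 and 1.48 CPM in Sham+Veh, 1.57 and 2.37 in CPIP+Veh, with 2.06 and 1.41 in CPIP+ETA. Hspb3 was at 0.595 and 0.438 CPM in Sham+Veh, 0.759 and 0.655 in CPIP+Veh, with 0.352 and 0.762 in CPIP+ETA. Each had a log2 fold change of 0.45 for CPIP+Veh against Sham+Veh, with SEs of 0.343 and 0.510, and did not pass. The 15 skeletal muscle markers, 13 of them above 0 in CPIP+Veh against Sham+Veh, summed to 20.8 and 38.8 CPM in Sham+Veh, 21.8 and 103 in CPIP+Veh, with 15.4 and 60.7 in CPIP+ETA, and none was at 0 in every library. Of all genes tested, 49.0% were above 0 in CPIP+Veh against Sham+Veh. Hspb7 was highest in CPIP+Veh 2, the library with the highest muscle sum. It was also above sham in CPIP+ETA 1, where that sum was the lowest. The part of muscle RNA was not tested.

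For Hspa2, an HSP70 known from germ cells, the value depended on 1 library. It was at 62.7 and 69.4 CPM in Sham+Veh, 67.5 and 73.0 in CPIP+Veh, with 48.5 and 71.6 in CPIP+ETA. CPIP+ETA 1 was low and CPIP+ETA 2 was inside the range of the other groups. The log2 fold change of CPIP+ETA against CPIP+Veh was -0.23 (SE 0.168, edgeR adjusted p = 0.938), 0.03 without CPIP+ETA 1 and -0.53 without CPIP+ETA 2. Schwann cell myelin markers, 10 of 10 tested, were also lowest in CPIP+ETA 1: they summed to 11990 and 14468 CPM in Sham+Veh, 14078 and 11597 in CPIP+Veh, with 9603 and 13948 in CPIP+ETA. Hspa2 was highest in CPIP+Veh 2, where the myelin sum lay below both sham sums. The sums of satellite glia (6384 CPM), smooth muscle and pericyte (206), skeletal muscle (15.4) and ciliated cell markers (14.2) were also lowest in CPIP+ETA 1. Those of sensory neuron (45099 CPM) and red blood cell markers (268) were highest there. For satellite glia and ciliated cell markers CPIP+Veh 2 was almost as low, at 6385 and 14.3 CPM. The part of any of these cells in the level of Hspa2 was not tested. Cryab, a small heat shock protein whose symbol the name rule does not take, was at 126 and 152 CPM in Sham+Veh, 139 and 112 in CPIP+Veh, with 108 and 137 in CPIP+ETA. The 6 libraries had the same order for Cryab as for the summed myelin markers, a description over 6 libraries that share their depth and tissue.

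**Figure D5:**
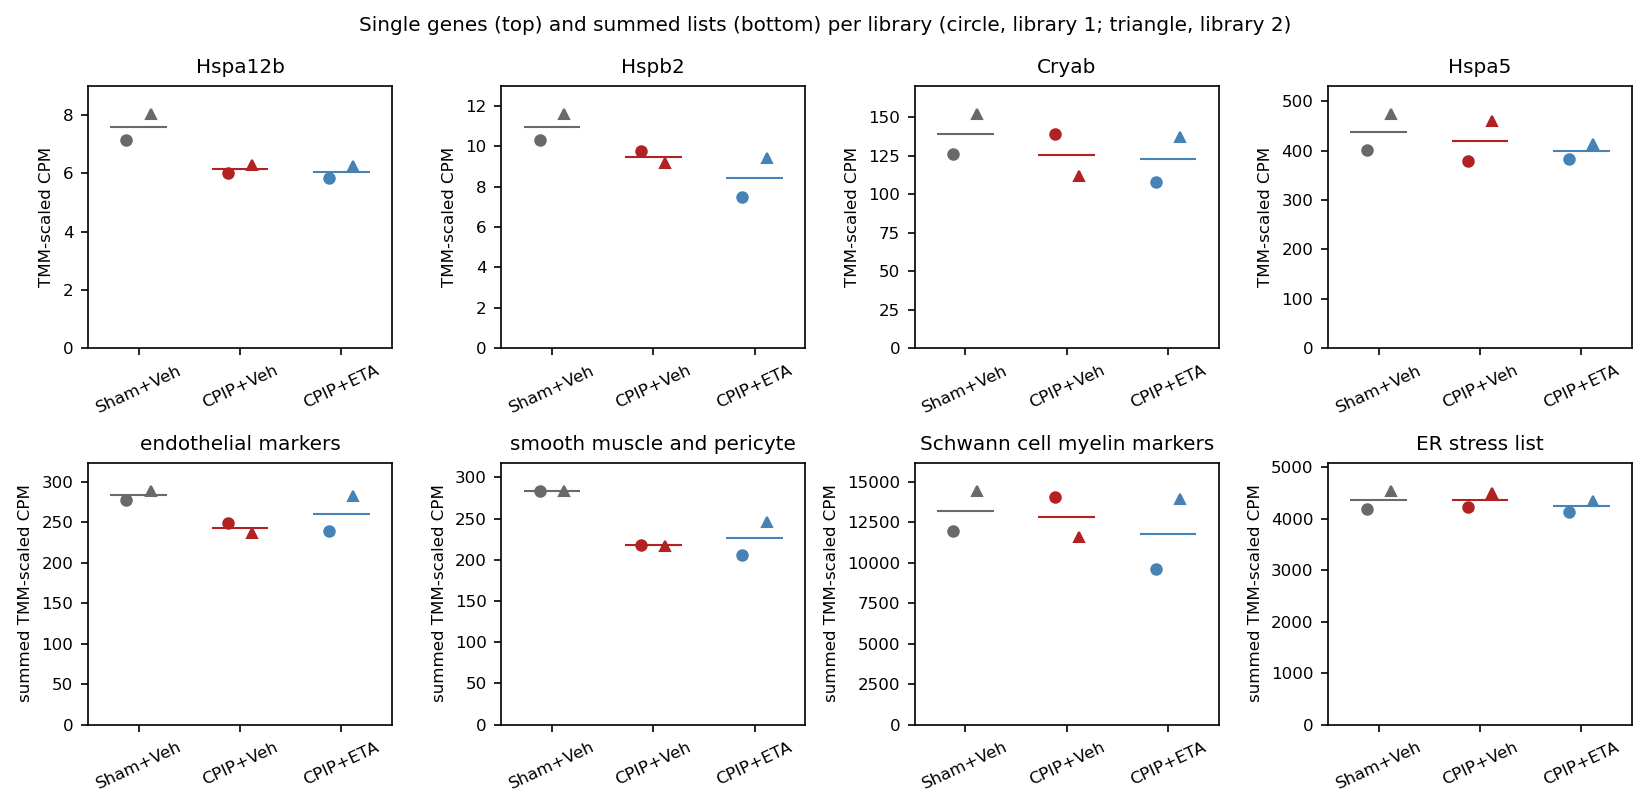
TMM-scaled CPM of Hspa12b, Hspb2, Cryab and Hspa5 (top row) and summed TMM-scaled CPM of the endothelial, smooth muscle and pericyte, and Schwann cell myelin markers and of the ER stress list (bottom row), by group, with library 1 as a circle, library 2 as a triangle and the mean as a line; vertical axes start at 0. Cryab and the myelin sum are highest in Sham+Veh 2 (152 and 14468 CPM) and lowest in CPIP+ETA 1 (108 and 9603 CPM).

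Of the 35 tested cytosolic partners and regulators, 0 were called in any comparison, and the medians were -0.00, 0.02 and 0.01. Fkbp5, an HSP90 cochaperone of steroid receptors and a glucocorticoid target, was at 34.2 and 36.9 CPM in Sham+Veh, 35.9 and 37.3 in CPIP+Veh, with 59.0 and 76.0 in CPIP+ETA. The etanercept libraries lay well above the other 4, with a log2 fold change of 0.88 against CPIP+Veh (SE 0.120, edgeR adjusted p = 0.719) and 0.92 against Sham+Veh (SE 0.121, adjusted p = 0.260), and it did not pass. The 18 glucocorticoid targets, Fkbp5 among them, had 16 above 0 (background 49.5%) and a median of 0.41 for CPIP+ETA against CPIP+Veh. Against Sham+Veh 17 were above 0 (background 49.2%), with a median of 0.56, and 0 were called in either comparison. This list too was fixed with earlier results of these data known and is no independent evidence of its direction. Beside Fkbp5, the targets with the lowest p in those comparisons were Hif3a, Klf15 and Tsc22d3. In CPIP+Veh against Sham+Veh they were Nfkbia, Cdkn1a and Per1, and the median was 0.03. Of the remaining partners with the lowest p, Tomm34 and Stip1 had 0.14 and 0.10 for CPIP+ETA against CPIP+Veh, and Cdc37l1 and Bag3 had 0.12 and -0.12 for CPIP+ETA against Sham+Veh.

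Bag3, the exchange factor that joins HSP70 to Hspb8, was at 171 and 167 CPM in Sham+Veh, 149 and 148 in CPIP+Veh, with 159 and 154 in CPIP+ETA. Hsf1, the heat shock transcription factor, was at 38.4 and 37.7 CPM in Sham+Veh, 34.5 and 31.1 in CPIP+Veh, with 35.5 and 33.8 in CPIP+ETA. Both had every CPIP library below sham, with log2 fold changes of -0.19 (SE 0.0481, edgeR adjusted p = 0.835) and -0.22 (SE 0.0758, adjusted p = 0.938) for CPIP+Veh, and did not pass. The 21 tested targets of heat shock factor 1, 12 of them members, had medians of 0.01, 0.05 and 0.05 and 0 called; Bag3, Hsp90aa1, Dnaja1, Hspa1a, Hsph1 and Stip1 had their lowest p. The next list held 17 genes of the chaperonin TRiC, which folds actin and tubulin, and of its feeder prefoldin. In CPIP+Veh against Sham+Veh 14 were above 0 (background 49.0%), with a median of 0.06. The other medians were -0.01 and 0.02, with 0 called. Cct8 led with a log2 fold change of 0.11 (SE 0.0477, edgeR adjusted p = 0.938), followed by Pdcl3 and Pfdn4. Pfdn4, Pfdn1 and Uri1 had the lowest p for CPIP+ETA against CPIP+Veh, and Cct8, Cct3 and Cct6a for CPIP+ETA against Sham+Veh. The 22 tested immediate early genes, fixed for comparison with the heat-inducible members, had medians of -0.07, 0.25 and 0.16 with 0 called. Egr1, Fosb and Fos had their lowest p in CPIP+Veh against Sham+Veh, Nr4a1, Fosb and Zfp36 in CPIP+ETA against CPIP+Veh, and Nr4a1, Nr4a3 and Btg2 in CPIP+ETA against Sham+Veh.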

How the data were processed

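The values the authors deposited are expected counts (estimates of the reads of a gene), 32.7% of them whole. The genome build in the submitters' processing notes is Rnor 6.0. Which aligner and counting program were used, and whether strand counted, is not given in the sources used here. Per the labels' protocols, RNA came from ganglia kept in RNAlater and was sequenced on the BGISEQ-500.

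Counts were rounded, blanks were read as 0, and edgeR 4.0.16 in R 4.3.3 fitted 1 quasi-likelihood model to all 6 libraries with group as its term. TMM scaling (factors 0.994 to 1.005) and filterByExpr (minimum count 10, minimum total 15) left 15531 genes. SE is the log2 fold change over the square root of F, intervals are 95%, and residual degrees of freedom were 3. The procedure was also run on simulated counts in which every gene had the same spread. The outcome is not given here, and no result above rests on it. All 73 identifiers matched a GRCr8 table, used for names, 72 with the same symbol (Hspb11 is now Ift25).

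Genes, lists and tests were chosen with earlier results of these data known. Named genes are a fixed set of well-known members, the 5 members with the lowest p in each comparison, and the 3 genes of each list with the lowest p. Other genes (Cryab, Atf3, the pseudogene rows) were picked with their values in view. The alternatives comprised other scalings, filters and tools (DESeq2 1.42.0, limma 3.58.1), a replicate block, single libraries left out, and, added later, copies summed and Hspa1a in steps. Figures used matplotlib 3.10.9.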

Additional observations from a re-analysis of the deposited data

How the results depend on the processing

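In each of the 3 comparisons 0 members were called under every alternative run. The count of all genes called moved with the tool: for CPIP+Veh against Sham+Veh it was 3 with edgeR and 49 with DESeq2, for CPIP+ETA against CPIP+Veh 0 and 21; CPIP+ETA against Sham+Veh had 3 and 50, where limma-voom gave 1 and a fit of only the 2 groups compared gave 1. With 1 library left out these counts ranged from 1 to 3, were 0 throughout, and ranged from 1 to 2. The lone library left in a group is then taken to vary like the other groups. The cause of the differences was not tested. With the replicate number as a block, 3, 0 and 3 genes and 0 members were called, and the deviations of libraries with the same number correlated at -0.05, -0.07 and 0.17 over 11891 genes, so the numbers were not taken as pairs. The median over the members stayed between 0.01 and 0.03, -0.00 and 0.03, and 0.03 and 0.06. Of 1440 alternative values of the named members, 1379 stayed within 1 SE and 74 differed in sign from the main value, 10 of them where the main value was at least 0.1 in size. For Hspa1a, CPIP+ETA against CPIP+Veh ranged from 0.41 with copies summed to 1.93 without CPIP+Veh 2. Its other values ran from 0.17 (copies summed) to 1.84 (without Sham+Veh 2) for CPIP+ETA against Sham+Veh, and from -0.71 (without CPIP+Veh 2) to 0.65 (without Sham+Veh 2) for CPIP+Veh against Sham+Veh.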
